A study of Mus musculus with 5 samples.

Results

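The bone morphogenetic proteins (BMPs) are secreted growth factors, and the retinal RNA levels of 5 of them and of 5 of their secreted antagonists were measured after form deprivation. The ligands were Bmp2, Bmp4, Bmp5, Bmp6 and Bmp7, and the antagonists were follistatin (Fst), gremlin 1 (Grem1), noggin (Nog), chordin (Chrd) and chordin-like 1 (Chrdl1). The genes were taken by symbol, and these 10 are 10 of the 33636 rows of the count table, with a single row for each symbol. Retinas came from male wild-type C57BL/6J mice at P42, after a diffuser goggle had covered the right eye for 2 weeks from P28, which drives form-deprivation myopia (FDM). The left eye of the same animals stayed uncovered and served as the control, so the controls are fellow eyes of goggled mice and not eyes of untreated mice. The table held 5 libraries from 3 mice, each from a single eye, 2 from FDM eyes (FDM 1 and FDM 3) and 3 from control eyes (Control 1, Control 2 and Control 3). Eyes with the same number belong to 1 mouse, so that mouse 1 and mouse 3 each gave a pair and Control 2 stands alone; the sample labels number the second FDM library 2, while the count table and the paper number it 3.

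BMP ligands are made as precursors, cut by proteases and released as dimers, which bind pairs of type I and type II receptors and activate Smad transcription factors inside the receiving cell. Noggin, chordin, chordin-like 1 and gremlin 1 bind the ligands outside the cell and keep them from the receptors, while follistatin binds activins with the highest affinity and several BMPs more weakly. In the eye, BMP4 and BMP7 are needed for early lens and optic cup development, BMP4 patterns the dorsal retina, and BMP2 and BMP4 are also made by the retinal pigment epithelium (RPE), the pigmented layer behind the retina.

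The estimated counts summed to between 40599047 and 56534931 per library. The levels given here are CPM, counts scaled to the library total after TMM normalisation. All 14 retinal markers, among them the phototransduction genes Gnat1 and Pde6b, were detected in every library. Markers of other tissues were not evenly spread. The 13 RPE markers summed to 75.9 CPM in both eyes of mouse 1, to 71.2 in FDM 3, and to 244 and 297 in Control 2 and Control 3. Each of the 13 was higher in both Control 2 and Control 3 than in any other library, and none of them was at 0 anywhere. The 7 lens markers found summed to 1778 CPM in FDM 3 and to between 2.60 and 16.2 in the other libraries, and the 6 skeletal muscle markers summed to 61.0 CPM in Control 3 and to between 9.31 and 10.8 elsewhere. The 6 fibroblast markers summed to 8.28 CPM in FDM 1, 14.4 in FDM 3 and 10.2 in Control 1, and to 20.5 and 30.8 in Control 2 and Control 3. Of these markers, 3 (Col1a2, Dcn and Ogn) were higher in both Control 2 and Control 3 than in any other library. The 5 blood markers ran from 32.9 to 47.6 CPM, the 7 vascular markers from 276 to 324 and the 4 microglial markers from 18.2 to 23.1.

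All 10 genes were expressed at low to moderate levels and all 10 passed the count filter, with counts from 8 for Nog in FDM 1 to 1169 for Chrdl1 in Control 2. For a comparison between genes, CPM was divided by the summed length of the annotated exons. On this scale Bmp7 was highest at 3.45 ± 0.546 CPM per kb (SD, n = 5), followed by Chrdl1 at 2.52 ± 0.335, Bmp5 at 1.91 ± 0.218 and Chrd at 1.23 ± 0.0740. Bmp4 (0.978 ± 0.515 CPM per kb), Bmp2 (0.622 ± 0.503) and Grem1 (0.603 ± 0.106) formed a middle group, and Bmp6 (0.311 ± 0.108), Nog (0.206 ± 0.0656) and Fst (0.121 ± 0.0359) were lowest. Neighbours in this order often overlapped across libraries: the range of Bmp7 (2.94 to 4.15) overlapped that of Chrdl1 (2.24 to 3.03), and the ranges of Bmp4 (0.441 to 1.54) and Bmp2 (0.197 to 1.32) overlapped each other and those of Chrd and Grem1. Bmp5 (1.59 to 2.19) lay below Chrdl1 and above Chrd (1.15 to 1.31) in all 5 libraries. Summed over the 5 ligands, the level was 5.81 CPM per kb in FDM 1, 6.77 in FDM 3 and 5.70 in Control 1, against 9.16 in Control 2 and 8.93 in Control 3. The sum over the 5 antagonists varied less, from 4.33 CPM per kb in FDM 1 to 5.33 in Control 2.

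**Figure D1:**
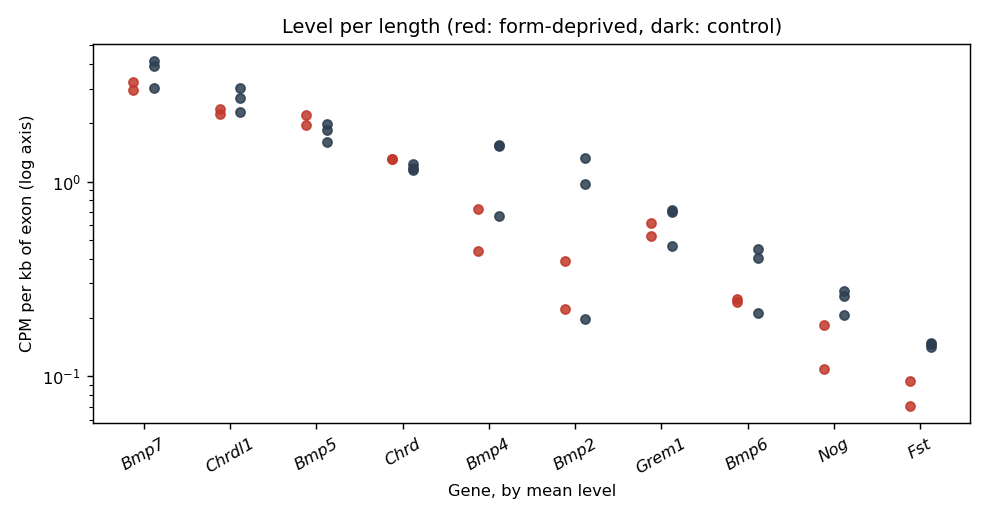
Level of each gene in CPM per kb of annotated exon (log axis), with 1 point per library, red for the 2 FDM eyes and dark for the 3 control eyes. Bmp7 and Chrdl1 lie highest and Nog and Fst lowest, and the points of Bmp2 and Bmp4 are the most widely spread.

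FDM and control eyes were compared to ask which retinal transcripts differ after form deprivation. Of the 10 genes, 2 passed the study's threshold, an unadjusted p under 0.05, by edgeR's quasi-likelihood test, and both, Bmp4 and Fst, were lower in FDM eyes. Across all 17432 genes tested, 1.61% passed that threshold in either direction and 1.16% as lower. After Benjamini-Hochberg adjustment over all genes, 0 of the 10 passed in edgeR and 0 in DESeq2. In DESeq2, 1 of the 10, Bmp4, had an unadjusted p under 0.05, against 0.987% of all genes tested. The log2 fold change was below 0 for 8 of the 10, 4 ligands and 4 antagonists, and for 55.6% of all genes tested. The median was -0.41 over the 10, against -0.01 over all genes tested. Bmp5 and Chrd were the 2 above 0. Within the pairs, 5 genes (Bmp4, Bmp7, Fst, Nog and Chrdl1) were lower in the FDM eye of both mice, and 2 (Bmp5 and Chrd) were higher in both. Bmp2, Bmp6 and Grem1 differed in opposite directions in the 2 mice. The share of all genes with each of these patterns was not counted. A fit blocked by mouse put 5 of the 10 (Bmp2, Bmp4, Bmp5, Bmp7 and Fst) past the unadjusted threshold, and 0 passed adjustment, while 7.23% of all genes passed the unadjusted threshold in that fit, which leaves 1 residual degree of freedom.

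**Figure D2:**
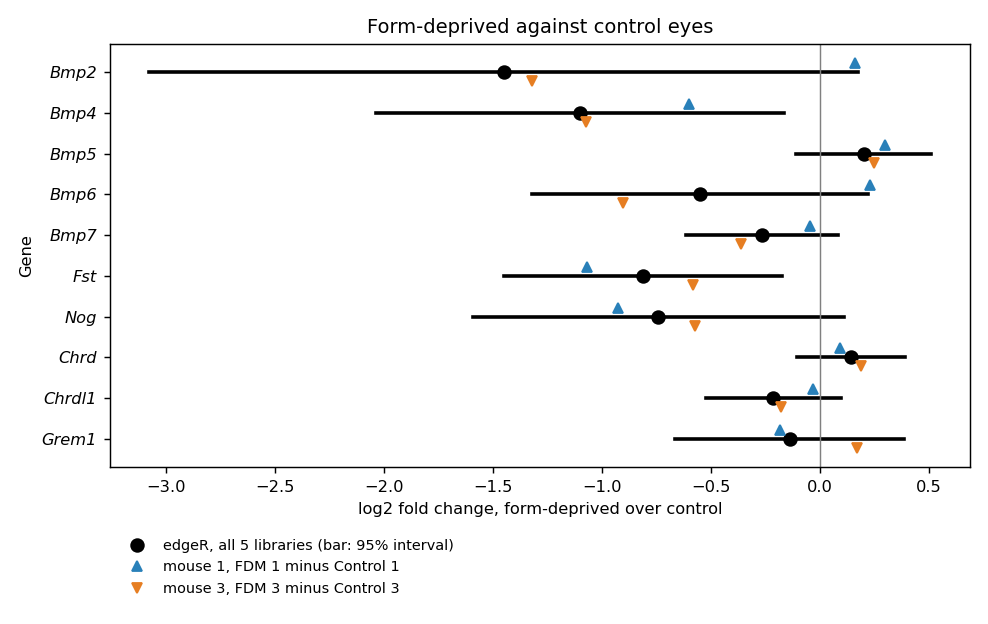
log2 fold change of FDM over control eyes for each gene. Black points are the edgeR estimates from all 5 libraries with their 95% intervals, blue triangles the difference within mouse 1 and orange triangles that within mouse 3. The interval lies wholly below 0 for Bmp4 and Fst and includes 0 for the other genes, and the 2 mice lie on opposite sides of 0 for Bmp2, Bmp6 and Grem1.

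**Figure D3:**
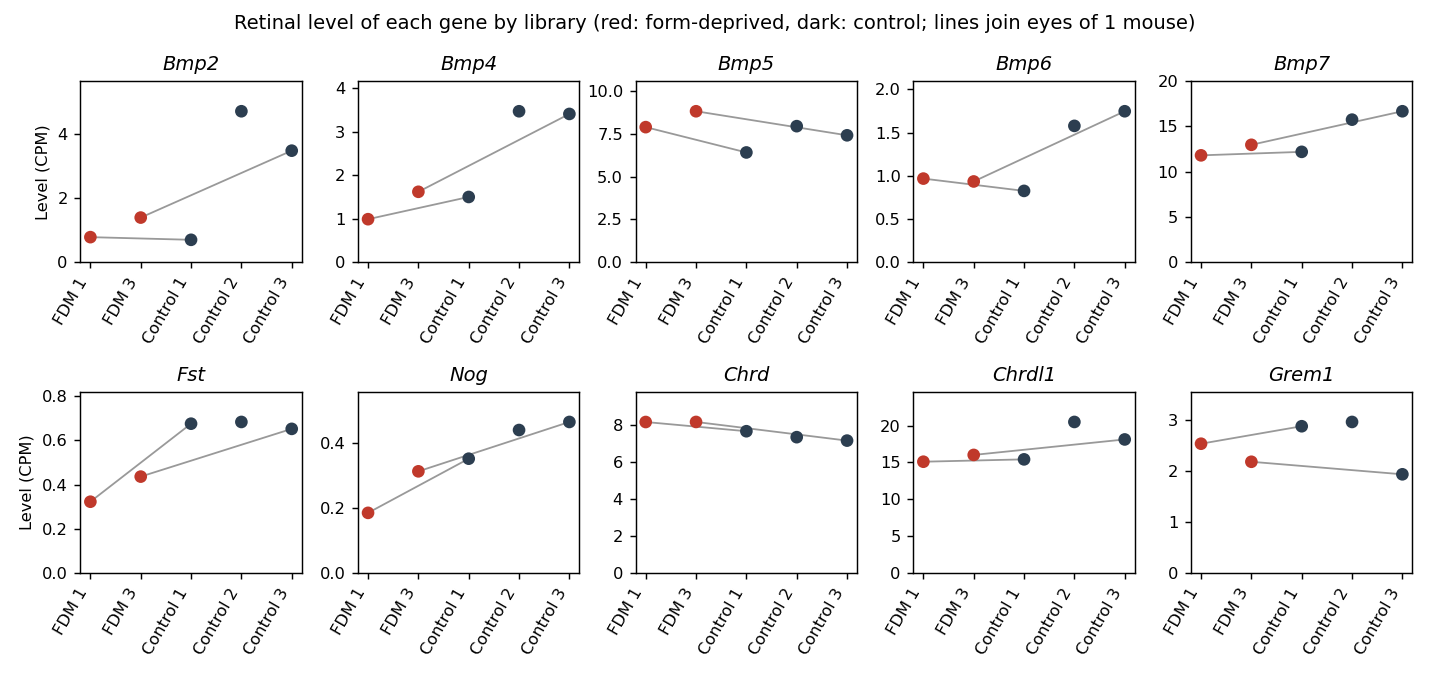
CPM of each gene in each library, on axes that start at 0, with red points for FDM eyes, dark points for control eyes and grey lines joining the eyes of 1 mouse. Bmp2, Bmp4, Bmp6 and Bmp7 are high in Control 2 and Control 3 and lie close to the FDM eyes in Control 1, whereas Fst is lower in both FDM eyes than in all 3 controls.

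BMP4, a ligand of the dorsal eye, is encoded on chromosome 14 of GRCm38 from 46383520 to 46390669, on the minus strand. Bmp4 had 0.992 and 1.62 CPM in the FDM eyes of mouse 1 and mouse 3, and 1.50, 3.47 and 3.41 CPM in the control eyes of mouse 1, mouse 2 and mouse 3. The FDM eyes overlapped with Control 1, and the other controls were at least 2.10-fold above them. Means were 1.31 ± 0.445 CPM for FDM (SD, n = 2) and 2.79 ± 1.12 CPM for controls (SD, n = 3), and the log2 fold change was -1.10 with a 95% interval from -2.04 to -0.16 (unadjusted p = 0.0272, adjusted p = 0.999989 from edgeR). The estimate was -0.79 without FDM 1 (unadjusted p = 0.131 from edgeR), -0.91 without Control 2 (unadjusted p = 0.0728) and -0.93 without Control 3 (unadjusted p = 0.0914), so the call rested on each of these 3 libraries. Without Control 1 it was -1.39 (unadjusted p = 0.000883, adjusted p = 0.264 from edgeR). Leaving out Control 1 keeps as controls only Control 2 and Control 3, the libraries with high RPE markers. Blocked by mouse, Bmp4 was at -0.88 (unadjusted p = 0.00226, adjusted p = 0.314 from edgeR). In DESeq2 the unadjusted p was 0.00855 and the adjusted p 0.999992. Within mouse 1 the log2 difference was -0.60, with a counting interval from -1.20 to -0.01, and within mouse 3 it was -1.07, from -1.48 to -0.67. In bulk tissue, fewer cells of a type and less RNA per cell cannot be told apart.

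The promoter of Bmp4 is shown because Bmp4 was the ligand that passed the unadjusted threshold. The 250 bases before its annotated start, at chr14:46390670-46390919 of GRCm38.p6 on the minus strand, are from RefSeq and lie outside annotated exons, and capitals mark the only match to the motifs searched, CACGTG, an E-box.
Bmp4 promoter: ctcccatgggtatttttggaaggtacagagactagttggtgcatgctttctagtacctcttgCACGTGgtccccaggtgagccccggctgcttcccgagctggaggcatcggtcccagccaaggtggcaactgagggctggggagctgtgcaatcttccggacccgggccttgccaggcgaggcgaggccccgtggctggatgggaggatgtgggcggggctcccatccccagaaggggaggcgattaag
This stretch is 63.2% G and C, against a median of 52.4% over all promoter windows of this length. The motifs were searched on both strands in 32851 windows: the E-box CACGTG is in 6.02% of them, the related E-box CATGTG is in 12.3%, the photoreceptor factor CRX's core motif TAATCC is in 6.25%, and the GC-rich motif GGCGCC, of a kind bound by Smads, is in 9.59%. E-boxes of the form CACGTG are bound by many basic helix-loop-helix factors, among them the pigment cell factor MITF and the circadian factors CLOCK and BMAL1. Promoter windows were on hand for 5 of the 10 genes, and that of Bmp6, which lies wholly within annotated exons of the gene, also held 1 CACGTG, those of Grem1 and Chrd held 1 GGCGCC each, and that of Bmp5 held none of the 4.

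BMP2 is the closest relative of BMP4, and its gene (chromosome 2, 133552159 to 133562885) was the most variable of the 10. Bmp2 had 0.784 CPM in FDM 1, 1.39 in FDM 3 and 0.701 in Control 1, and 4.70 in Control 2 and 3.47 in Control 3, a 6.70-fold range. FDM eyes averaged 1.09 ± 0.430 CPM (SD, n = 2), and controls averaged 2.96 ± 2.05 CPM (SD, n = 3). The fitted change of -1.45 on the log2 scale was larger than that of Bmp4, but its 95% interval ran from -3.08 to 0.18 (unadjusted p = 0.0734, adjusted p = 0.999989 from edgeR). The spread among the controls, 2.74 on the log2 scale, exceeded the difference between the groups. The 2 mice differed: within mouse 1 the FDM eye was 0.16 above the control eye (counting interval -0.60 to 0.94) and within mouse 3 it was at -1.32 (-1.75 to -0.90). The unadjusted p was 0.000383 from edgeR without Control 1, where the log2 fold change was -1.90, 0.0314 with no count filter, and 0.0318 with the mouse as a block, where it was -0.79 (adjusted p = 0.654). The unadjusted p was 0.208 without Control 2, where the estimate was -0.94, and 0.167 without Control 3, where it was -1.33, both from edgeR, and 0.134 in DESeq2. In limma with a pseudocount of 1 the estimate was -1.10 (unadjusted p = 0.186). Blocks taken from the label numbers instead join the second FDM eye with Control 2, an eye of another mouse by the paper and the count table. Bmp2 was then at -1.01 with an adjusted p of 0.0493 from edgeR. In that fit 128 of all genes tested passed adjustment, against 0 in the main fit. This was the only adjusted value under 0.05 of any of the 10 genes in any setting. Over all settings the adjusted p of Bmp2 ran from 0.0493 to 0.999992.

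BMP6 and BMP7 belong with BMP5 to a separate subfamily of BMP ligands. Bmp6 (chromosome 13, 38345107 to 38500302) had 0.969 and 0.935 CPM in the FDM eyes of mouse 1 and mouse 3, and 0.826, 1.58 and 1.75 CPM in the control eyes of mouse 1, mouse 2 and mouse 3. The FDM eyes lay above Control 1 and below the other 2 controls. The log2 fold change of Bmp6 was -0.55 with a 95% interval from -1.32 to 0.22 (unadjusted p = 0.137 from edgeR), and the differences within the mice were 0.23 in mouse 1 and -0.90 in mouse 3. Bmp7 (chromosome 2, 172868012 to 172940321) had 11.8 and 13.0 CPM in the FDM eyes of mouse 1 and mouse 3, and 12.2, 15.7 and 16.7 CPM in the control eyes of mouse 1, mouse 2 and mouse 3. Its log2 fold change was -0.26, with an interval from -0.61 to 0.09 (unadjusted p = 0.118 from edgeR), and the differences within the mice were -0.05 and -0.36. Blocked by mouse, Bmp7 passed the unadjusted threshold (unadjusted p = 0.0467, adjusted p = 0.683 from edgeR). Without Control 1, both Bmp6 (-0.80, unadjusted p = 0.00713) and Bmp7 (-0.39, unadjusted p = 0.00970) passed the unadjusted threshold in edgeR, while without Control 3 Bmp6 was at -0.35 (unadjusted p = 0.357) and Bmp7 at -0.17 (unadjusted p = 0.335).

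Bmp2, Bmp4, Bmp6, Bmp7, Nog and Chrdl1 were each higher in both Control 2 and Control 3 than in the other 3 libraries, an arrangement shown by 15.4% of all genes tested. These are the libraries in which the 13 RPE markers were high, 1.69 and 1.97 above Control 1 on the log2 scale as a sum. The sum of the fibroblast markers was also highest in them, at 20.5 CPM in Control 2 and 30.8 in Control 3. Relative to Control 1, Control 2 and Control 3 stood at 2.74 and 2.31 for Bmp2, at 1.21 and 1.18 for Bmp4, at 0.93 and 1.08 for Bmp6 and at 0.37 and 0.45 for Bmp7. The RPE markers Rpe65 (2.38 and 2.14), Ttr (1.78 and 1.46), Lrat, Rdh5, Kcnj13 and Slc16a8 were, like Bmp2, highest in Control 2. The pigment gene Dct (1.35 and 3.39) and Tyr, Tyrp1, Pmel, Mlana, Best1 and Slc45a2 were highest in Control 3, as was the RPE sum. In FDM 3, Bmp2 was 0.99 above Control 1 while the RPE sum was at -0.09. Single RPE markers in FDM 3 lay on both sides of Control 1. Dct was at 0.63, while Rpe65, Lrat and Ttr were at -0.25, -0.14 and -0.42. Tyrp1 had 4.39 CPM in FDM 3 against 2.15 in Control 1, and Mlana 0.769 against 0.225. Mouse 1 gave a comparison with equal RPE sums in both eyes (75.9 CPM each). Single RPE markers still differed between its eyes, from -0.94 to 0.85 on the log2 scale, FDM minus control. In mouse 1, Bmp2, Bmp6 and Bmp7 had counting intervals that included 0. Bmp4 was lower in the FDM eye by an amount whose interval ended just short of 0. When Control 2 and Control 3 were both left out, so that Control 1 alone stood for the controls, the log2 fold changes were 0.66 for Bmp2, -0.17 for Bmp4, 0.22 for Bmp6 and 0.04 for Bmp7, and edgeR called none of these 4 at the unadjusted threshold. In that setting, which was chosen after seeing the data, the log2 fold change was -0.80 for Fst and 0.40 for Bmp5. Over all genes tested, the calls turned from 79 higher and 202 lower to 1449 higher and 378 lower. The part that RPE or fibroblast tissue has in the levels of these genes was not tested.

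**Figure D4:**
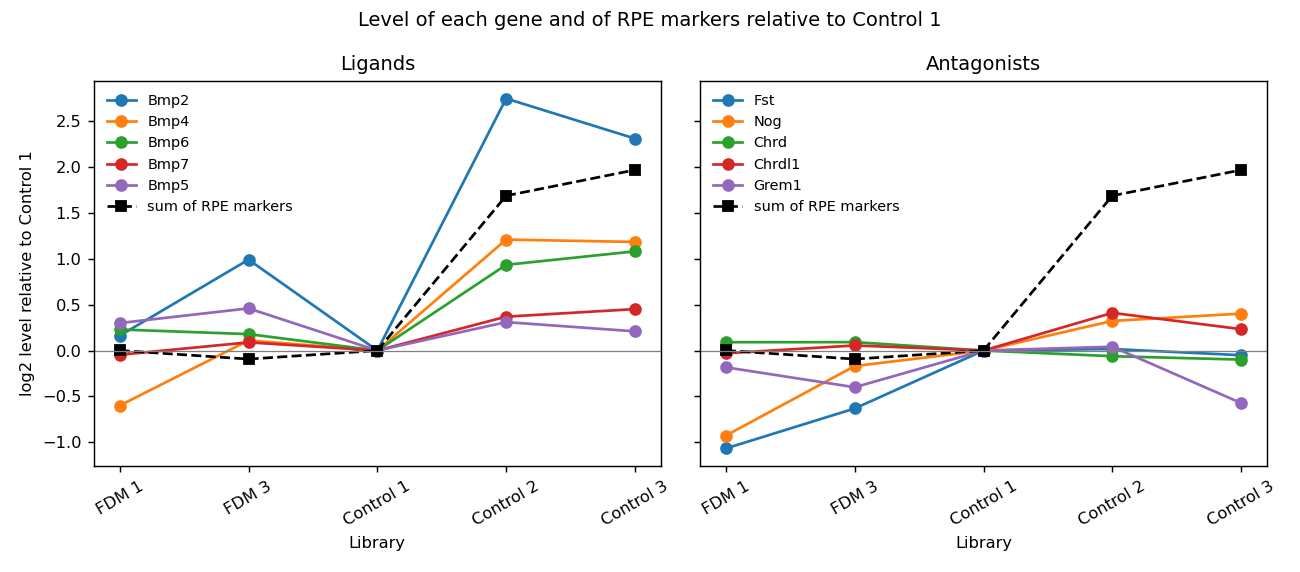
log2 level of each gene in each library relative to Control 1, ligands on the left and antagonists on the right, with the sum of 13 RPE markers as a dashed black line. Bmp2, Bmp4 and Bmp6 are high where the RPE sum is high, in Control 2 and Control 3, while Bmp5, Fst and Chrd stay within 0.31 of Control 1 in those 2 libraries.

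Bmp5 (chromosome 9, 75775364 to 75900310) was the ligand whose libraries lay closest together. Bmp5 had 7.89 and 8.81 CPM in the FDM eyes of mouse 1 and mouse 3, and 6.41, 7.94 and 7.41 CPM in the control eyes of mouse 1, mouse 2 and mouse 3. FDM 1 lay just below Control 2, so the groups overlapped. The log2 fold change was 0.20, with a 95% interval from -0.11 to 0.51 (unadjusted p = 0.170 from edgeR). In both mice the FDM eye was higher, by 0.30 in mouse 1 (counting interval 0.06 to 0.54) and by 0.25 in mouse 3 (0.04 to 0.46). Blocked by mouse, Bmp5 passed the unadjusted threshold at a log2 fold change of 0.27 (unadjusted p = 0.0323, adjusted p = 0.654 from edgeR). Exons of Bmp5, 4025 bases in all, overlap those of Gm26903 on the opposite strand by up to 1878 bases. Reads that lie wholly within a shared stretch cannot be told apart by strand in libraries that carry none.

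Follistatin, the activin and BMP binding protein, was the only antagonist of the 5 past the unadjusted threshold. Fst (chromosome 13, 114452290 to 114458951) had 0.323 CPM in FDM 1 and 0.437 in FDM 3, against 0.676 in Control 1, 0.684 in Control 2 and 0.653 in Control 3. Both FDM eyes lay below all 3 controls, an arrangement that 6.67% of all genes tested showed, and the 3 controls lay within 0.07 of each other on the log2 scale. The means were 0.380 ± 0.0804 CPM (SD, n = 2) and 0.671 ± 0.0163 (SD, n = 3), and the log2 fold change was -0.81 with a 95% interval from -1.45 to -0.17 (unadjusted p = 0.0193, adjusted p = 0.999989 from edgeR). These levels rest on 14, 21, 27, 39 and 31 counts in FDM 1, FDM 3, Control 1, Control 2 and Control 3. The difference was -1.07 in mouse 1 (counting interval -2.11 to -0.08) and -0.58 in mouse 3 (-1.45 to 0.27). Fst did not pass the unadjusted threshold in DESeq2 (unadjusted p = 0.102), nor in edgeR without FDM 1, where the log2 fold change was -0.62 (unadjusted p = 0.138). When Control 2 and Control 3 were left out together it was -0.80 (unadjusted p = 0.0745 from edgeR).

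Noggin showed the same arrangement as Fst, with both FDM eyes below all 3 controls. Nog (chromosome 11, 89300638 to 89302332) had 0.184 CPM in FDM 1 and 0.312 in FDM 3, against 0.351, 0.438 and 0.463 in Control 1, 2 and 3. Its counts were the lowest of the 10 genes, at 8, 15, 14, 25 and 22 in the same order. The log2 fold change was -0.74, with a 95% interval from -1.59 to 0.11 (unadjusted p = 0.0787 from edgeR). Both mice had the lower value in the FDM eye, by -0.93 and -0.57 on the log2 scale, and both counting intervals included 0 (-2.39 to 0.43 and -1.62 to 0.44).

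Chordin, which sequesters BMPs until it is cut by proteases of the tolloid family, was the steadiest of the 10 genes. Chrd (chromosome 16, 20733127 to 20742384) had 8.19 and 8.19 CPM in the FDM eyes of mouse 1 and mouse 3, and 7.69, 7.36 and 7.18 CPM in the control eyes of mouse 1, mouse 2 and mouse 3. Both FDM eyes lay above all 3 controls, as they did for 3.97% of all genes tested, but the whole range was 1.14-fold. The log2 fold change of 0.14 had a 95% interval from -0.10 to 0.39 (unadjusted p = 0.211 from edgeR). Exons of Chrd overlap those of Thpo on the opposite strand by up to 239 bases, as exons of Bmp6, Fst and Bmp4 overlap those of Txndc5 (224 bases), Gm47040 (115) and Gm15217 (89).

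Chordin-like 1, a chordin relative, and gremlin 1, of the DAN family of antagonists, did not differ beyond the spread of their libraries. Chrdl1 (chromosome X, 143285674 to 143394262) had 15.1 and 16.0 CPM in the FDM eyes of mouse 1 and mouse 3, and 15.4, 20.5 and 18.1 CPM in the control eyes of mouse 1, mouse 2 and mouse 3, and a log2 fold change of -0.21 (95% interval -0.52 to 0.10, unadjusted p = 0.150 from edgeR). Control 1 lay between the FDM eyes, and without it Chrdl1 was at -0.31 (unadjusted p = 0.0260 from edgeR), while without Control 2 it was at -0.10 (unadjusted p = 0.396). Grem1 (chromosome 2, 113746164 to 113758646) had 2.54, 2.18, 2.88, 2.96 and 1.94 CPM in FDM 1, FDM 3, Control 1, Control 2 and Control 3. Its log2 fold change was -0.14 (95% interval -0.66 to 0.39, unadjusted p = 0.558 from edgeR), and Control 3 was the lowest and Control 2 the highest of all 5 libraries.

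Around these 10 genes, 61 further genes of the pathway were looked up, of which 56 were tested and 2, both lower in FDM eyes, passed edgeR's unadjusted threshold, against the 1.61% of all genes. Among the other secreted antagonists and modulators, 1 of 15 passed. This was Nbl1, a DAN family antagonist, with 33.2 and 33.0 CPM in the FDM eyes of mouse 1 and mouse 3 and 36.1, 39.2 and 43.5 CPM in the control eyes. Its difference was -0.26 on the log2 scale (unadjusted p = 0.0336, adjusted p = 0.999989 from edgeR). Both FDM eyes were below all 3 controls. On the exon length scale Nbl1 (18.2 CPM per kb), Dand5 (9.15) and Twsg1 (8.10) were the highest of this list, each above all 10 genes described here. Among the Smads and BMP targets, 1 of 15 passed, Id2, an inhibitor of basic helix-loop-helix factors, with 12.0 and 11.9 CPM in the FDM eyes and 13.5, 14.4 and 16.9 CPM in the control eyes. The Id2 difference was -0.32 on the log2 scale (unadjusted p = 0.0321, adjusted p = 0.999989 from edgeR). The related targets Id1 and Id3, at -0.10 and -0.21, did not pass, and the median over the 15 was -0.09. Blocked by mouse, Id3 was at -0.44 (unadjusted p = 0.00531, adjusted p = 0.474 from edgeR). The FDM eye had the lower Id3 value in both mice, at -0.15 and -0.71.

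No call at the unadjusted threshold was made by edgeR among the other BMP and GDF ligands (0 of 8 tested), the chordin proteases (0 of 2), the receptors and co-receptors (0 of 13) or the activin subunits (0 of 3). DESeq2 made 2 calls over the 56, against 0.987% of all genes tested. The highest other ligands on the exon length scale were Gdf11 at 3.96 and Bmp3 at 1.78 CPM per kb, with log2 fold changes of -0.12 and -0.04. The type I receptor gene Bmpr1a (12.9 CPM per kb) had a log2 fold change of -0.24 and was highest in Control 2, at 112 CPM against 67.6 to 82.7 elsewhere. The co-receptor gene Neo1 (11.4 CPM per kb) was at -0.03, and Bmp1, which encodes a protease that cuts chordin, at 0.04. Inha, Inhba and Inhbb, the subunits of the inhibins and activins, were at 0.10, 0.08 and -0.33. Blocking by mouse put 6 of the 56 (Nbl1, Dand5, Fstl1, Id2 and Id3 as lower and Acvr2b as higher) past the unadjusted threshold and 0 passed adjustment, against the 7.23% of all genes in that fit.

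The genes most like each of the 10 across the 5 libraries were taken by the root mean square difference of log2 CPM, centred on each gene's mean, among genes with a mean of at least 1 CPM. For Bmp4 these were Cldn19, Angptl2 and Fosl2, at 0.0956, 0.151 and 0.156, and for Bmp2 they were Slc13a4, Slc6a13 and Crhbp, at 0.229, 0.249 and 0.251. Bmp6 was nearest to Dse (0.0447), Bmp7 to Apoe (0.0212), Fst to Gm6055 (0.116) and Nog to Maff (0.0692). Over 5 libraries many genes share a profile, and these distances are a description of the libraries only.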

How the data were processed

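The authors trimmed the reads with Trimmomatic 0.39 and quantified transcripts with Salmon 1.10.1, per the submitters' processing notes, and deposited estimated counts per gene as whole numbers on GRCm38. A second deposited table holds a normalized signal, the counts after DESeq2 scaling by a factor per gene and library. The authors left 1 FDM library out for read duplication. Libraries were poly-A selected with a kit that keeps no strand.

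Of 33636 genes, 17432 exceeded 10 counts in 2 or more libraries and entered the test in edgeR 4.0.16, run in R 4.3.3 (TMM, quasi-likelihood, no covariate, unadjusted threshold 0.05), beside DESeq2 1.42.0, limma 3.58.1 and the other settings of the closing section. The 95% intervals are the estimate and its standard error times the t quantile, and exact binomial counting intervals cover counting error only. The 337 rows without a symbol, 0.0806% of counts, kept their Ensembl identifier. All 10 genes and all 123 list genes found were matched to GENCODE M21 for coordinates and exon lengths.

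The mouse numbers of the paper and the count table gave the pairs. Deviations from the group means correlated across genes at 0.252 for FDM 1 and Control 1 and at 0.134 for FDM 3 and Control 3, but also at 0.143 for FDM 3 and Control 2. With 2 FDM libraries these deviations mirror each other, so the check does not favour mouse 3 over the label numbers. The pair rests on the paper and the table. The refractive errors at P42 in the sample labels, taken with the paper's mean shift and its SD, also go with the pair of mouse 3. The script was tested on simulated data. The genes, lists and motifs were chosen with earlier results of these data known. Named genes were the 10, pathway genes past the unadjusted threshold or among the 3 highest of a list, the 3 highest markers of a list and the 3 nearest genes. Id1, Id3, the RPE markers beyond the 3 highest, Dcn and the receptor and ligand examples were read after their values were seen.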

Additional observations from a re-analysis of the deposited data

How the results depend on the processing

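The number of the 10 genes past the unadjusted threshold was 2, both lower, and it was 1 in DESeq2, 5 with the replicate block by mouse (1 higher, 4 lower) and 1, higher, without Control 2 and Control 3 together, a setting chosen after seeing the data. It ran from 0 without FDM 1 to 6 without Control 1 when single libraries were left out. Without Control 1, 946 of all genes tested passed, against 281 in the main fit, and the controls that remained were those with high RPE markers. After adjustment, the number of the 10 genes that passed was 1 with the replicate block by label numbers. For the pathway genes the count of 2, both lower, became 1 higher and 0 lower in limma with either pseudocount and with the label block, where neither Nbl1 nor Id2 passed, 6 with the mouse block (1 higher, 5 lower) and 6 without both controls (5 higher, 1 lower), and 0 to 6 with single libraries left out. Over all genes, 281 (79 higher, 202 lower) became 172 in DESeq2, 498 without the count filter, 1261 with the mouse block (622 higher, 639 lower), 439 with the label block and 1827 without both controls (1449 higher, 378 lower), and 146 to 946 with single libraries left out. The adjusted counts were 3, 54, 128 and 1 in DESeq2, the mouse block, the label block and without both controls, and 0 to 16 with single libraries left out. With the authors' factors per gene and library in edgeR, the count of pathway genes stayed at 2, but as 1 higher and 1 lower. Without both controls the log2 fold changes of Bmp2 (0.66), Bmp6 (0.22), Bmp7 (0.044) and Chrdl1 (0.034) turned above 0. By the longest transcript, Chrdl1 ranked 1 and Bmp7 ranked 2 in level per kb. Of the other values of single genes, 128 kept their direction and side of the threshold, 10 newly passed it and 7 no longer did. Where 1 library of a group remained, it was assumed to vary like the others. Except where given, the cause was not tested. Nog at 8 to 25 counts is limited by depth.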
